A study of Rattus norvegicus with 11 samples.

Results

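Cortical interneurons are inhibitory cells that release GABA, and many of them also make a neuropeptide by which they are classed. Somatostatin marks cells that target the dendrites of pyramidal neurons, vasoactive intestinal peptide marks cells that inhibit other interneurons, and cholecystokinin and corticotropin-releasing hormone mark further sets, although cholecystokinin is also made by many cortical pyramidal neurons. The 5 neuropeptide genes studied were chosen by Ensembl identifier, namely Sst (ENSRNOG00000001837), Npy (ENSRNOG00000046449), Vip (ENSRNOG00000018808), Cck (ENSRNOG00000019321) and Crh (ENSRNOG00000012703). The rule used no measured value, although earlier results of these data were known when the genes were chosen. Of these 5 genes, 4 were among the 15607 genes of the table analysed, and Npy, the neuropeptide Y gene, was not analysed here because its identifier was in neither table used. The 4 measured genes all passed the authors' filter on low reads.

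The transcripts were measured by RNA sequencing of tissue punches of the medial prefrontal cortex (mPFC) from 11 Sprague-Dawley rats aged 2 to 3 months. The groups were males (n = 4), females in proestrus, the stage with high ovarian hormone levels (n = 3), and females in diestrus, a stage with low levels (n = 4). Per the study's methods, samples came from separate animals, females in diestrus were killed early in the day and females in proestrus in the early afternoon, so that stage and hour cannot be told apart. The libraries held 15.9 to 24.6 M reads on genes. In bulk tissue, fewer cells of a type and less RNA per cell cannot be told apart. The GABAergic identity genes Gad1, Dlx1 and Dlx2 were detected in all 11 samples, with at least 3578, 693 and 57.1 normalized counts.

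Both Sst and Vip are textbook genes under the cAMP response element (CRE), the site bound by the transcription factor CREB, so their RefSeq start regions are shown with that motif. Each window runs from 250 bases before to 50 bases after the annotated start in the GRCr8 assembly, which is not the assembly of the count table, and capitals mark each TGACG (or CGTCA on the other strand), the CRE half-site.
Sst, chr11:90461296-90461595, plus strand: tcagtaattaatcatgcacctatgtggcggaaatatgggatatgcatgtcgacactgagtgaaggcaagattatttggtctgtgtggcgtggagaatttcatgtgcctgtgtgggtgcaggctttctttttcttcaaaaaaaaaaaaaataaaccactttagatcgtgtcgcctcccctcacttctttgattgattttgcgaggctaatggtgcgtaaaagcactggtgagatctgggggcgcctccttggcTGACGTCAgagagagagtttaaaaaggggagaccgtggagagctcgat
Vip, chr1:44470230-44470529, plus strand: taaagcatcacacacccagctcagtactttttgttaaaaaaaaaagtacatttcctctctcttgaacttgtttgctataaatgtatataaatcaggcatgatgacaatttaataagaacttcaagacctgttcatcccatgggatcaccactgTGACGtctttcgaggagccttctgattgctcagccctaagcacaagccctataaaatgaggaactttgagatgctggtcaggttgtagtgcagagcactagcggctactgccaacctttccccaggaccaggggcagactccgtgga
The Sst window held the whole palindrome TGACGTCA from base 3 after the annotated start, and the Vip window held only the half-site, at position −97 from the start. Over 33469 rat promoter windows of the same length, searched on both strands, 1.83% held TGACGTCA and 21.2% held the half-site, which lies within the palindrome. The EGR motif GCGTGGGCG, in 0.544% of windows, its variant GCGGGGGCG, in 2.73%, and the estrogen response element GGTCANNNTGACC, in 0.0269%, had no match in these 2 windows. A match of letters is a description and not a measured binding site.

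Sst encodes somatostatin, the inhibitory peptide of dendrite-targeting interneurons. The normalized count of Sst was 3965, 4782, 3615 and 3844 in male replicates 2 to 5. It was 5523, 5895, 3954 and 3721 in diestrus replicates 2 to 5, and 3963, 3635 and 4321 in proestrus replicates 1, 3 and 5. Diestrus replicates 2 and 3 were the highest of all 11 samples, while the other diestrus samples lay among the males and the proestrus females, so that all 3 groups overlapped. The mean was 4773 ± 1095 in diestrus (SD, n = 4), 4051 ± 508 in males (SD, n = 4) and 3973 ± 343 in proestrus (SD, n = 3). The coefficient of variation was 22.9% in diestrus, 12.5% in males and 8.63% in proestrus.

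Cck encodes cholecystokinin. Its normalized count was 10895, 12876, 9329 and 9625 in male replicates 2 to 5. The values were 12779, 12023, 9612 and 9971 in diestrus replicates 2 to 5, and 8691, 9477 and 9410 in proestrus replicates 1, 3 and 5. All proestrus samples were below all diestrus samples, by as little as 9477 against 9612, while males overlapped both. The group means were 11096 ± 1545 in diestrus (SD, n = 4), 10681 ± 1613 in males (SD, n = 4) and 9192 ± 436 in proestrus (SD, n = 3).

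Vip encodes vasoactive intestinal peptide, of interneurons that mostly inhibit other interneurons. The values of Vip were 960, 982, 988 and 1117 normalized counts in male replicates 2 to 5, 1010, 857, 995 and 974 in diestrus replicates 2 to 5, and 883, 867 and 1046 in proestrus replicates 1, 3 and 5. The highest value was in a male and the lowest in a diestrus female, and the 3 groups overlapped. The means were 1012 ± 71.1 in males (SD, n = 4), 959 ± 69.6 in diestrus (SD, n = 4) and 932 ± 99.0 in proestrus (SD, n = 3).

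Crh encodes corticotropin-releasing hormone, known from the hypothalamic stress axis and also made by cortical interneurons. Its normalized count was 169, 174, 156 and 175 in male replicates 2 to 5, 203, 203, 156 and 194 in diestrus replicates 2 to 5, and 165, 148 and 168 in proestrus replicates 1, 3 and 5. Of the diestrus samples, replicates 2, 3 and 5 were above every sample of the other groups, and replicate 4 was among the lowest. The mean was 189 ± 22.4 in diestrus (SD, n = 4), 169 ± 8.77 in males (SD, n = 4) and 161 ± 10.7 in proestrus (SD, n = 3). Crh rested on 132 to 248 reads per library, and in males its coefficient of variation of 5.20% was below the counting error of 7.71%.

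**Figure D1:**
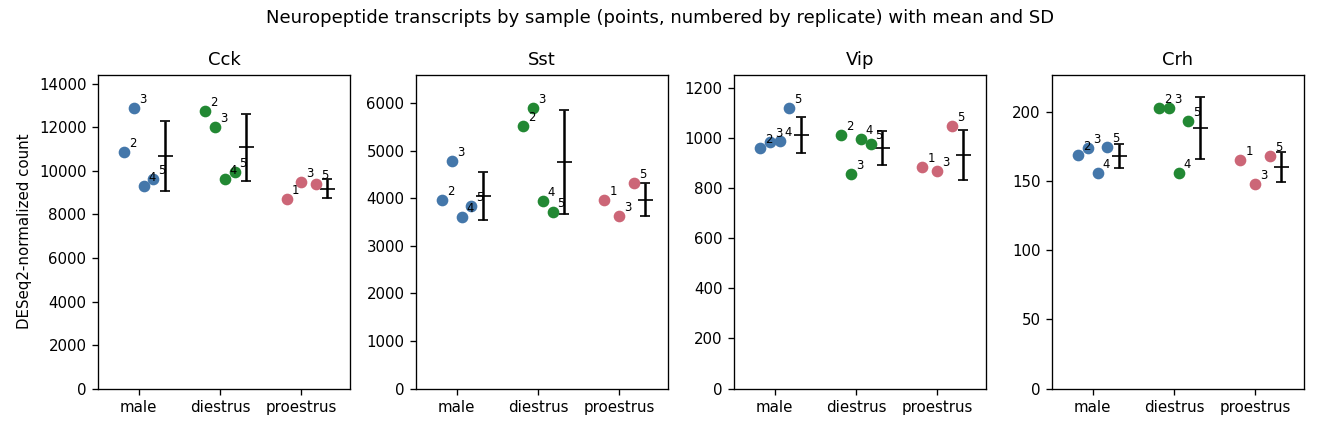
DESeq2-normalized count of each gene (y axis, from 0) in every sample, grouped as males, diestrus and proestrus females. Points are samples with their replicate number, and the black bar is the mean ± SD. Diestrus replicates 2 and 3 stand at 5523 and 5895 for Sst, above every other sample, and the 3 proestrus samples lie below all 4 diestrus samples for Cck.

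The genes also differed in how far samples of 1 group lay apart. The residual SD within groups on the log2 scale was 0.24 for Sst, 0.18 for Cck, 0.13 for Crh and 0.12 for Vip, beside a median of 0.16 over the 11731 genes whose mean reached 50 normalized counts. Over all 11 samples, the highest value was 1.63 times the lowest for Sst, 1.48 times for Cck, 1.37 times for Crh and 1.30 times for Vip.

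To examine the effect of the stage of the cycle on these transcripts, proestrus was compared with diestrus in a limma fit over all 15607 genes. None of the 4 genes passed the 5% false discovery rate (FDR) with limma, whereas 2.53% of all genes did. At an unadjusted p under 0.05, 1 of the 4 genes was below the threshold, beside 26.7% of all genes. The quasi-likelihood test of edgeR and DESeq2 on recovered reads also called 0 of the 4 genes, with 2.7% of all genes called by edgeR and 7.63% of the 14093 genes to which DESeq2 gave an adjusted p. The fitted difference was below 0, that is lower in proestrus, for all 4 genes, as for 51.7% of all genes.

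Cck had the largest fitted difference of the 4, with a log2 difference of −0.26 ± 0.12 (SE; 95% confidence interval −0.52 to −0.01; adjusted p = 0.178 with limma and Benjamini-Hochberg). All proestrus samples lay below all diestrus samples for Cck alone among the 4 genes, and the same was true of 11.6% of all genes. For Sst the log2 difference was −0.24 ± 0.15 (SE; 95% confidence interval −0.56 to 0.08; adjusted p = 0.299 with limma). With 1 library left out in turn, that of Sst ran from −0.35 to −0.13. Crh differed by −0.23 ± 0.12 on the log2 scale (SE; 95% confidence interval −0.49 to 0.03; adjusted p = 0.234 with limma). Vip differed by −0.04 ± 0.09 (SE; 95% confidence interval −0.24 to 0.15; adjusted p = 0.771 with limma). The interval of Vip bounds its proestrus level to between 0.846 and 1.11 times that of diestrus, and the interval of Sst to between 0.678 and 1.06 times.

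Diestrus replicates 2 and 3, the highest diestrus samples for Sst and Cck, were also left out together after their values were seen, a choice that by itself narrows the gap of these 2 genes. Without them the log2 difference was 0.05 for Sst, −0.09 for Cck, −0.12 for Crh and −0.08 for Vip. The sign of Sst was turned, and the difference of Vip was larger in size than with them.

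Proestrus females were next compared with males. With limma, 0 of the 4 genes passed the FDR, beside 0.0833% of all genes. An unadjusted p under 0.05 was found for 0 of the 4, beside 1766 of the 15607 genes. edgeR and DESeq2 also called 0 of the 4, beside 0.0833% of all genes and 0.837% of the 14093 genes with an adjusted p from DESeq2. The log2 difference was −0.21 ± 0.12 for Cck (SE; 95% confidence interval −0.46 to 0.05; adjusted p = 0.510 with limma), and −0.11 without male replicate 3. It was −0.12 ± 0.09 for Vip (SE, adjusted p = 0.585), −0.07 ± 0.12 for Crh (SE, adjusted p = 0.805) and −0.02 ± 0.15 for Sst (SE, adjusted p = 0.951), all with limma. With 1 library left out in turn, the log2 difference ran from −0.21 to −0.07 for Vip and from −0.11 to −0.01 for Crh.

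Diestrus females were compared with the same 4 males, so that both comparisons share their control samples. Again 0 of the 4 genes passed the FDR with limma, beside 0.128% of all genes. At an unadjusted p under 0.05 there were 0 of the 4, beside 1501 of the 15607 genes. edgeR and DESeq2 called 0 of the 4, beside 0.141% of all genes and 0.78% of the 15000 genes with an adjusted p from DESeq2. The log2 difference was 0.22 ± 0.14 for Sst (SE; 95% confidence interval −0.08 to 0.51; adjusted p = 0.614 with limma) and 0.16 ± 0.11 for Crh (SE, adjusted p = 0.633 with limma). It was 0.06 ± 0.11 for Cck (SE, adjusted p = 0.857) and −0.08 ± 0.09 for Vip (SE, adjusted p = 0.738), with limma. With 1 library left out in turn it ran from 0.10 to 0.33 for Sst, from 0.12 to 0.25 for Crh and from −0.10 to −0.02 for Vip. Without diestrus replicates 2 and 3 the log2 difference was −0.07 for Sst, −0.11 for Cck, 0.05 for Crh and −0.04 for Vip.

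When the 7 females were compared with the 4 males irrespective of stage, limma called 0 of the 4 genes at the FDR, beside 0.135% of all genes. An unadjusted p under 0.05 was found for 0 of the 4, beside 754 of the 15607 genes. edgeR and DESeq2 called 0 of the 4, beside 0.147% of all genes and 0.513% of the 15001 genes with an adjusted p from DESeq2. The log2 differences were 0.11 ± 0.13 for Sst, 0.06 ± 0.11 for Crh, −0.06 ± 0.11 for Cck and −0.10 ± 0.08 for Vip (SE), each with an adjusted p of 1.00 with limma. With 1 library left out in turn they ran from 0.04 to 0.20 for Sst, 0.02 to 0.10 for Crh and −0.12 to −0.05 for Vip. The 95% confidence intervals set the female level between 0.885 and 1.32 times the male level for Sst and between 0.836 and 1.05 times for Vip.

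**Figure D2:**
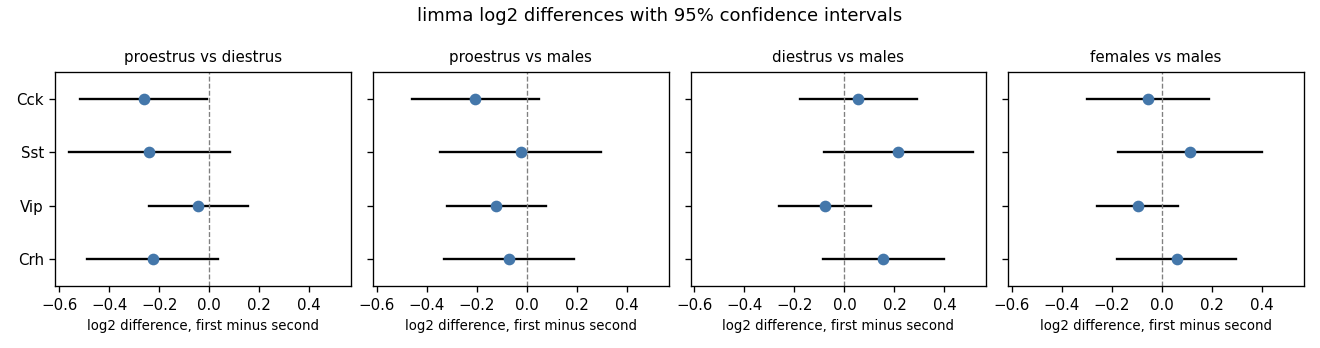
Fitted log2 differences (x axis, first group minus second) of the 4 genes in the 4 comparisons, with 95% confidence intervals as lines and a dashed line at no difference. The interval of Cck in proestrus vs diestrus, −0.52 to −0.01, is the only one of the 16 that does not include 0 before adjustment.

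To see whether the peptide transcripts varied together between animals, the log2 levels of each pair of genes were correlated over the 11 samples. Sst and Cck had a Pearson r of 0.80 (permutation p = 0.00556, adjusted over 6 pairs p = 0.0327) and a Spearman rho of 0.62 (permutation p = 0.0485, adjusted p = 0.104). Sst and Crh had an r of 0.73 (permutation p = 0.0109, adjusted p = 0.0327) and a rho of 0.61 (permutation p = 0.0518, adjusted p = 0.104). Cck and Crh had an r of 0.65 (permutation p = 0.03, adjusted p = 0.06) and a rho of 0.72 (permutation p = 0.0166, adjusted p = 0.0996). By Pearson r 2 of the 6 pairs passed the FDR, and by rho 0 did. With Vip, r was −0.16 for Sst (adjusted permutation p = 0.938), −0.03 for Cck (0.938) and 0.05 for Crh (0.938), and rho was −0.05 (0.946), −0.03 (0.946) and 0.12 (0.946).

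After the group means were subtracted, r was 0.84 for Sst and Cck (exact permutation p within groups = 0.0177, adjusted p = 0.106), 0.65 for Sst and Crh (exact permutation, adjusted p = 0.193) and 0.55 for Cck and Crh (exact permutation, adjusted p = 0.229). Without the 2 samples farthest from the median of Sst, which were diestrus replicates 2 and 3, r was 0.67 for Sst and Cck and 0.25 for Sst and Crh. These 2 samples were removed as the extremes of Sst, which by itself lowers r, so no conclusion is drawn from the lower values. With only 1 of them left out, r of Sst and Crh was 0.64 or 0.62. For Cck and Crh, r was 0.66 without diestrus replicate 2 and male replicate 3. With 2 samples left out in the same way, r with Vip was 0.22 for Sst, 0.37 for Cck and 0.43 for Crh. The call of Sst and Cck was also lost without diestrus replicate 2 (adjusted permutation p = 0.130), diestrus replicate 3 (0.0757) or male replicate 4 (0.0545), where r was 0.73, 0.80 and 0.79. The call of Sst and Crh was lost without diestrus replicate 2, 3 or 4, male replicate 2 or 4, or proestrus replicate 1 or 3, with r between 0.62 and 0.73.

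**Figure D3:**
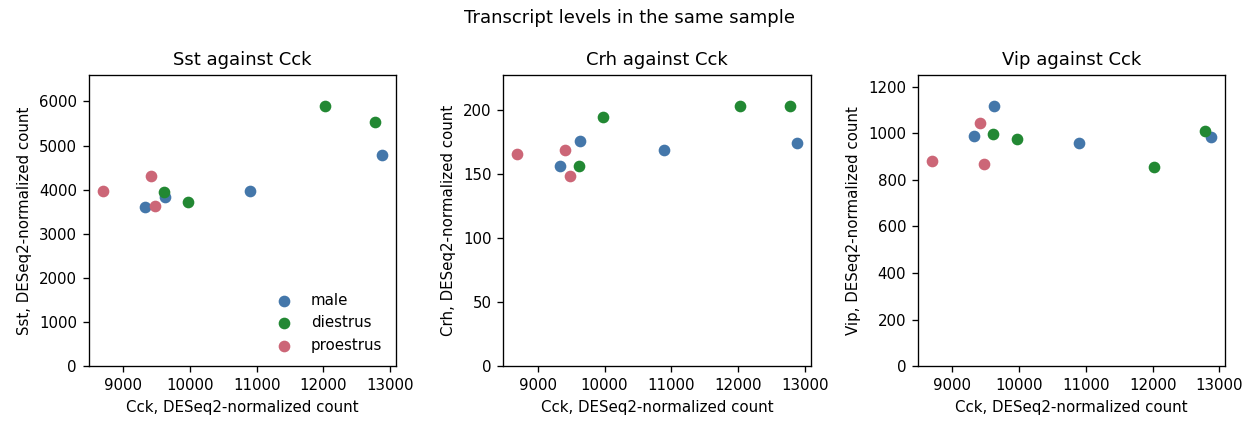
Normalized count of Sst, Crh and Vip (y axes, from 0) against that of Cck (x axis, not from 0) in the same sample, coloured by group. Diestrus replicates 2 and 3 and male replicate 3 have the highest Cck, 12023 to 12876, and the highest Sst, 4782 to 5895, whereas the r of Vip and Cck over the 11 samples is −0.03.

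Among 11730 other genes whose mean reached 50 normalized counts, those with the most similar levels over the 11 samples were found for each peptide gene. For Cck these were Klhdc8a (ENSRNOG00000000036, r = 0.98), ENSRNOG00000020247 (0.98) and Zfp358 (ENSRNOG00000000974, 0.98). For Sst they were ENSRNOG00000022289 (r = 0.98), ENSRNOG00000021373 (0.98) and ENSRNOG00000029077 (0.98). For Crh they were ENSRNOG00000011705 (0.92), ENSRNOG00000023226 (0.92) and ENSRNOG00000025810 (0.92), and for Vip ENSRNOG00000020620 (0.88), ENSRNOG00000006622 (0.88) and ENSRNOG00000005097 (0.86). These are the highest of many correlations over the same libraries and are given as a description. Klhdc8a ran from 669 normalized counts in proestrus replicate 1 to 893 in male replicate 3, the samples that were also lowest and highest for Cck.

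Gad1, the main enzyme of GABA synthesis, did not follow the peptides. Its r was −0.70 with Sst, −0.77 with Cck, −0.50 with Crh and 0.43 with Vip. Gad1 was at 4001, 3578, 4569 and 4440 normalized counts in diestrus replicates 2 to 5, 4218, 3746, 4161 and 4418 in male replicates 2 to 5, and 4309, 4343 and 4801 in proestrus replicates 1, 3 and 5. The 3 lowest Gad1 levels were in diestrus replicate 3, male replicate 3 and diestrus replicate 2, the samples with the highest Sst and Cck. The log2 difference of Gad1 between proestrus and diestrus was 0.12 ± 0.09 (SE, adjusted p = 0.388 with limma). Set relative to Gad1 in the same sample, the log2 difference between proestrus and diestrus was −0.38 for Cck, −0.36 for Sst, −0.34 for Crh and −0.16 for Vip, and 0 of the 4 genes passed the FDR with limma (adjusted p from 0.234 to 0.321).

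Of 22 listed genes of GABAergic neurons, 7 could be matched to an identifier, and 0 of the 7 passed the FDR in either direction in any of the 4 comparisons with limma. In proestrus vs diestrus, where 2.53% of all genes passed the FDR and 26.7% had an unadjusted p under 0.05, 2 of the 7 had such a p. Their median log2 difference was 0.12, beside −0.01 over all genes. Abat, the enzyme that breaks down GABA, named after its values were seen, had the lowest adjusted p of the 7 (log2 difference 0.42 ± 0.13, SE, adjusted p = 0.09 with limma). Dlx1 and Dlx2, the transcription factors of interneuron development, differed by −0.06 ± 0.09 and −0.05 ± 0.19 (SE, adjusted p = 0.678 and 0.873 with limma). Nos1, the neuronal nitric oxide synthase of long-range somatostatin cells, was at 275 ± 79.2 in diestrus (SD, n = 4) against 371 ± 42.5 in proestrus (SD, n = 3), with a log2 difference of 0.47 ± 0.20 (SE, adjusted p = 0.161 with limma). Chodl, the other marker of those cells, was at 8.0 ± 3.96 in diestrus (SD, n = 4) against 13.0 ± 5.58 in proestrus (SD, n = 3), with adjusted p = 0.323. For Nos1 the fitted difference thus had the opposite sign to that of Sst, and the difference between these 2 genes was not tested.

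The receptors of the member peptides were not analysed here, since 0 of 15 listed symbols could be matched. Of 14 listed GABA receptor genes, 5 were matched and 0 passed the FDR with limma in any comparison, with 3 of the 5 at an unadjusted p under 0.05 in proestrus vs diestrus, where 26.7% of all genes were. Their median log2 difference there was 1.09, beside −0.01 over all genes, with 3 of the 5 above 0 and Gabbr1 and Gabrb1 at −0.08 and −0.16. Gabra4, a subunit of the GABA-A receptor named here after its values were seen, was at 212 ± 75.5 in diestrus (SD, n = 4) against 516 ± 17.7 in proestrus (SD, n = 3), with a log2 difference of 1.35 ± 0.36 (SE, adjusted p = 0.0646 with limma). Its lowest values, 136, 147 and 159 in diestrus replicate 2, male replicate 3 and diestrus replicate 3, were in the 3 samples with the highest Sst and Cck.

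**Figure D4:**
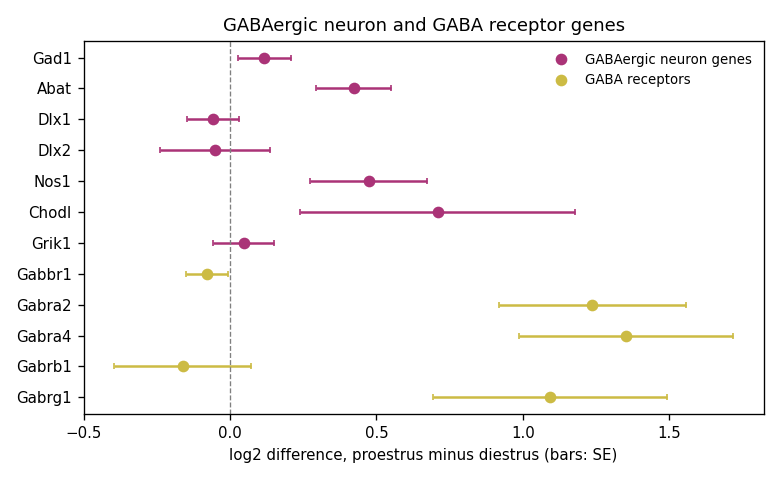
Fitted log2 difference between proestrus and diestrus (x axis, proestrus minus diestrus, bars SE) of the 7 matched GABAergic neuron genes and the 5 matched GABA receptor genes. Gabra2, Gabra4 and Gabrg1 lie above 1, Abat, Nos1 and Chodl lie at 0.42, 0.47 and 0.71, the other genes lie between −0.16 and 0.12, and none of the 12 genes passed the FDR.

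Markers of the other cell types that the punches could hold were examined in the same way. Of 32 listed markers, 11 were matched, and 0 passed the FDR with limma in any comparison. In proestrus vs diestrus 5 of the 11 had an unadjusted p under 0.05, beside 26.7% of all genes, and their log2 differences lay between −0.33 and 0.34. Against males they lay between −0.62 and 0.31 for proestrus, between −0.29 and 0.52 for diestrus and between −0.43 and 0.38 for all females. In these comparisons 2, 4 and 3 of the 11 markers had an unadjusted p under 0.05 with limma, beside 1766, 1501 and 754 of the 15607 genes. The oligodendrocyte marker Mog ran from 838 to 1381 normalized counts in diestrus, 792 to 916 in proestrus and 613 to 915 in males. The summed astrocyte markers Gja1 and S100b ran from 21185 to 25475 in diestrus, 19343 to 22534 in proestrus and 21632 to 24468 in males, and the log2 differences of the 2 between proestrus and diestrus had opposite signs, 0.26 for Gja1 and −0.28 for S100b. The 3 microglial markers summed to 705 to 957 in diestrus, 671 to 806 in proestrus and 717 to 796 in males. The single matched markers of excitatory neurons (Cux2), oligodendrocyte precursors (Pdgfra) and vascular cells (Myh11) ran from 988 to 1597, 717 to 882 and 948 to 1145 in diestrus. They ran from 1440 to 1633, 895 to 967 and 756 to 926 in proestrus, and from 1321 to 1635, 807 to 1010 and 984 to 1476 in males. Adora2a, the 1 matched marker of striatal projection neurons, was at 305 in proestrus replicate 5 and at 95.8 to 180 in the other samples, and proestrus replicate 5 had the highest Sst, Vip and Crh of the proestrus samples. Without that library the log2 difference between proestrus and diestrus was −0.30 for Sst, −0.28 for Cck, −0.26 for Crh and −0.13 for Vip, each larger in size than with it. The part of these cell types in the other results was not tested.

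The samples with high Sst and Cck also stood together over many other genes, which was examined after these values were seen. On the first principal component of the 500 most variable genes other than the peptide genes, which held 24.8% of their variance, diestrus replicates 3 and 2 and male replicate 3 scored lowest (−16.9, −16.0 and −12.1) and proestrus replicate 1 highest (15.2). A second measure was the median level of genes with a short genomic span minus that of genes with a long one, taken over the 234 shortest and the 234 longest of 933 genes with a span in RefSeq. It was 0.39, 0.27 and 0.29 on the log2 scale in diestrus replicates 3 and 2 and male replicate 3, and −0.24 to 0.01 in the other 8 samples. All 3 proestrus samples were at or below −0.19.

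Over the 11 samples, r with the short-minus-long measure was 0.92 for Cck (permutation p = 0.0006, adjusted over 12 relations p = 0.0036; rho = 0.83, adjusted permutation p = 0.0161) and 0.87 for Sst (permutation p = 0.00209, adjusted p = 0.00836; rho = 0.65, adjusted permutation p = 0.0687). It was 0.68 for Crh (permutation p = 0.0202, adjusted p = 0.0485; rho = 0.60, adjusted permutation p = 0.0971) and −0.15 for Vip (permutation p = 0.663, adjusted p = 0.883; rho = −0.13, adjusted permutation p = 0.856). Without the 2 samples farthest from the median of the measure, r was 0.90 for Cck, 0.75 for Sst, 0.65 for Crh and 0.25 for Vip. Within groups, after the group means were subtracted, r was 0.90 for Cck, 0.91 for Sst, 0.49 for Crh and −0.38 for Vip. With the first component, r was −0.90 for Cck (permutation p = 0.00011, adjusted p = 0.00132; rho = −0.90), −0.78 for Sst (permutation p = 0.00286, adjusted p = 0.00858; rho = −0.72), −0.68 for Crh (permutation p = 0.0254, adjusted p = 0.0507; rho = −0.65) and 0.03 for Vip (permutation p = 0.929, adjusted p = 0.929; rho = 0.01). With the total reads per library, r was 0.42 for Cck (permutation p = 0.198, adjusted p = 0.297; rho = 0.72, adjusted permutation p = 0.0485) and 0.49 for Crh (permutation p = 0.126, adjusted p = 0.215; rho = 0.55, adjusted permutation p = 0.13). It was 0.08 for Sst (permutation p = 0.822, adjusted p = 0.929; rho = 0.20) and 0.06 for Vip (permutation p = 0.859, adjusted p = 0.929; rho = −0.09). Their part in the levels of the peptide genes was not tested.

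**Figure D5:**
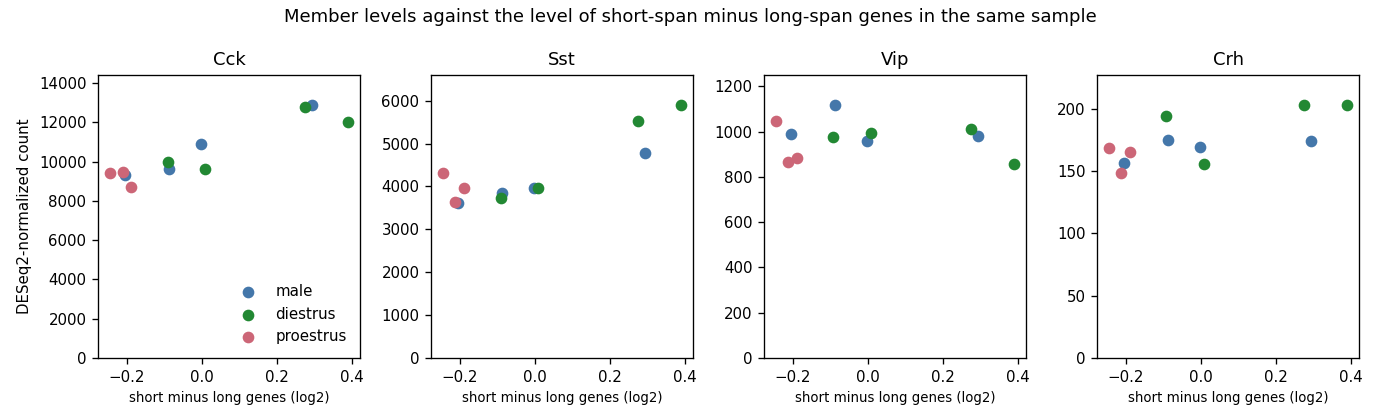
Normalized count of each gene (y axes, from 0) against the median log2 level of short-span minus long-span genes in the same sample (x axis), coloured by group. Cck and Sst are highest in the 3 samples at 0.27 to 0.39, which are 2 diestrus females and 1 male, and the r of Vip with the measure is −0.15.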

How the data were processed

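Per the labels and the study's methods, the authors made poly(A)-selected, unstranded libraries, used Trimmomatic 0.32 on the single-end reads, TopHat2 2.0.11 with Bowtie2 2.1.0 for alignment to Rnor_5.0, and counted unique reads per gene with HTSeq 0.6.1p1, removed genes of low reads and left out 1 proestrus library. Both deposited tables hold a signal per gene and sample: reads divided by DESeq2 size factors (15607 genes, used here) or values described as normalized with edgeR (15724 genes). In the first, 100% of values became whole reads within 0.01, as depth per library 15.9 to 24.6 M reads.

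The main test was limma 3.58.1 (R 4.3.3, variance trend) on log2(normalized count + 1) over all genes, two-sided, with Benjamini-Hochberg adjustment at an FDR of 0.05. This scale understates changes of low genes. The 3 groups shared 1 fit, and females vs males had sex as its sole term. The recovered reads were also tested with edgeR 4.0.16 (quasi-likelihood) and DESeq2 1.42.0. On simulated data for 15607 genes, 200 genes with a mean of at least 50 were made to differ by 1 on the log2 scale. Of these, limma found 92% for the stages, 92% for proestrus against males, 93.5% for diestrus against males and 99% for all females against males. It also called 8 to 11 unchanged genes. The simulated libraries were drawn independently, and differences as small as those of the 4 peptide genes were not simulated. These shares therefore do not give the power to detect such differences. Correlations used 100000 permutations, or exact enumeration within groups, over 6 pairs, since Npy was not analysed here. Intervals on reads cover counting error only.

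The genes and lists were chosen with earlier results of these data known. The 4 members are always named. A listed gene is named if it passed the FDR or is Gad1, Dlx1, Dlx2, Chodl or Nos1. The other listed genes printed (Abat, GABA receptor genes and markers of other cell types) fall outside this rule and were picked with their values in view. The 3 genes most like each member are named. Symbols of other genes came from an annotation of 1238 genes of low identifier number in the study's supplement, names only, since 0 of 47357 RefSeq genes carried an Ensembl identifier; 23 of 83 listed symbols were matched. The values of 1 matched marker are not reported here. Spans and start regions were taken from RefSeq (GRCr8), which gave a span for 90.7% of the 1029 named genes with a mean of at least 50. Alternatives were other normalizations, pseudocounts, filters, tests and samples left out.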

Additional observations from a re-analysis of the deposited data

Results flagged for a closer look

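In the 8 sets of 4 samples examined (4 genes in males and in diestrus), no sample lay apart from the others beyond the 95% limit of Dixon's test, and the proestrus group of 3 was not examined. The difference between the proestrus and diestrus effects against males is the contrast of proestrus with diestrus, in which 0 of the 4 genes passed the FDR with limma and 1 had an unadjusted p under 0.05, and edgeR and DESeq2 also called 0.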

How the results depend on the processing

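The count of the 4 genes past the FDR was 0 in all 4 comparisons under every alternative run, including each library left out in turn (0 to 0), so these alternatives moved no call. Leaving out diestrus replicates 2 and 3 together, added after the data were seen, turned the log2 difference of Sst in proestrus vs diestrus (0.047), diestrus vs males (−0.071) and females vs males (−0.043), of Cck in diestrus vs males (−0.11) and of Crh in females vs males (−0.024). Quantile normalization turned Sst in proestrus vs males (0.0067), and the edgeR-normalized table turned Crh in females vs males (−0.042). With 1 library left out, signs turned for Vip in proestrus vs diestrus (−0.13 to 0.0056), Sst in proestrus vs males (−0.086 to 0.059), Cck in diestrus vs males (−0.015 to 0.15) and Cck in females vs males (−0.12 to 0.038).

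The number of correlated pairs, 2 of 6, was 3 with quantile normalization, where Cck and Crh also passed (r = 0.76), 5 in the edgeR-normalized table and 5 relative to Gad1, 0 with group means subtracted, 0 without diestrus replicates 2 and 3, and 0 to 3 with 1 library left out. The edgeR-normalized table is not scaled for depth (totals of 15.9 to 24.6 M), and values relative to Gad1 share 1 subtracted gene, so that both add a shared term to every gene. There, r of Sst and Vip was 0.54 and 0.58, r of Vip and Cck 0.68 and 0.70, and r of Vip and Crh 0.83 and 0.63, the last 2 pairs past the FDR in both. The r of Vip and Cck was 0.0073 with TMM, 0.075 with quantile normalization and 0.14 without both diestrus samples, that of Vip and Crh was −0.0083 with quantile normalization, and that of Sst and Vip was 0.22 without both diestrus samples. With 1 library left out, r ran from −0.35 to 0.25 for Sst and Vip, −0.22 to 0.20 for Vip and Cck and −0.21 to 0.40 for Vip and Crh.

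Replicate numbers are shared between groups. Per the study's methods, males were collected on the days of the females, but no label ties a number to a day. The deviations of same-numbered samples correlated at 0.01 to 0.59 over 8 pairs, 6 of them over 0.1. Of 10 samples, 6 were closest to their own number. A pairing by number can thus not be set aside, and the main tests leave it out. With the replicate number as a block, 0 of the 4 genes passed in any comparison. With this block r was 0.53 for Sst and Vip, 0.70 for Vip and Cck and 0.12 for Vip and Crh. Without it these were −0.16, −0.03 and 0.05, so that the low r with Vip depends on this choice. With 3 or 4 animals a group, the 95% confidence interval of Sst between the stages reached −0.56 on the log2 scale.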
